A study of Mus musculus with 6 samples.

Results

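The colony-stimulating factor and interleukin-3 receptors were followed as 6 genes, Csf1r, Csf3r, Csf2ra, Il3ra, Csf2rb and Csf2rb2, among the 49585 genes of the deposited count table. They were chosen by name, as the genes of the receptors for M-CSF, G-CSF, GM-CSF and IL-3, and not by their counts. Earlier results of these data were known when they were chosen. The series profiled poly(A) RNA of mouse bone marrow leukaemia cells that the labels call MA9, an abbreviation commonly used for MLL-AF9 leukaemia. The Gata2 KO group, 3 libraries of genotype Gata2 -/-, is named Cre in the sample descriptions, and the Gata2 f/f group, also 3 libraries, carries loxP-flanked Gata2 alleles, as the notation f/f is usually read. The effects of Cre and of the deletion cannot be told apart. Libraries are numbered 1 to 3 within a genotype. Both groups grew in a medium with serum and murine IL-3, with IL-6 at 10 ng/mL and SCF at 20 ng/mL, and had 5 uM Nutlin, an MDM2 inhibitor that stabilises p53, for 18 h before RNA was taken. Nutlin was thus common to all libraries, and its effect was not analysed here. The labels name neither the promoter that drove Cre nor the exons deleted. The design text calls the samples of a condition independent, but does not say whether they were separate leukaemias, so the p-values measure the spread between these libraries.

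Colony-stimulating factors are secreted proteins that keep myeloid progenitors alive and drive them towards granulocytes and monocytes. Csf1r encodes a receptor tyrosine kinase for M-CSF and IL-34 that marks the monocyte and macrophage lineage. Csf3r encodes the G-CSF receptor of the neutrophil lineage, which signals as a homodimer through JAK kinases. The GM-CSF and IL-3 receptors pair a ligand-specific alpha chain, from Csf2ra or Il3ra, with a beta chain that signals through JAK2 and STAT5. Csf2rb encodes the beta chain shared by GM-CSF, IL-3 and IL-5, and Csf2rb2, an extra gene found in mice, encodes a beta chain that serves IL-3 alone.

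Libraries held 17138687 to 26440960 counts. Gata2 itself had 5.44, 43.3 and 4.33 CPM in Gata2 KO 1, 2 and 3, and 33.6, 22.3 and 18.4 CPM in Gata2 f/f 1, 2 and 3, where CPM are counts scaled to a common library size after TMM adjustment. The Gata2 level in the library labelled Gata2 KO 2 was above that of any Gata2 f/f library, against its label, and calls between genotypes or numbers are also given without it where a fit was possible. Genotypes and numbers are given throughout as the libraries are labelled. Both libraries numbered 3 stand apart from the other 4 in many genes: 21.1% of the 13744 genes tested were higher in both of them than in any other library. Spi1 and Lyz2, genes of myeloid cells, were abundant in every library, at no less than 220.3 and 168 CPM, while Pax5, Cd4 and Ncr1, defining genes of lymphoid cells, were at or near 0.

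The receptor genes were all well measured, with at least 231 reads in every library. Their ligands were not: of 6 ligand genes, Csf1 alone passed the filter on low counts. Csf1, which encodes M-CSF, had 24.6, 31.1 and 31.3 CPM in Gata2 KO and 9.87, 9.54 and 39.4 CPM in Gata2 f/f, a layout like that of its receptor in that Gata2 f/f 1 and 2 were low and Gata2 f/f 3 was the highest. Il3 and Il5 had 0 reads in all libraries, which allows a level of up to 0.0233 CPM over the 6 libraries together, by counting error only. Csf2, Csf3 and Il34 stayed at or under 0.714 CPM.

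The upstream sequences are shown because Gata2 encodes a factor that binds GATA letters in DNA. They are the 250 bases before the transcription start that RefSeq gives (GRCm38.p6), 5′ to 3′ on the gene's own strand, for the 4 receptor genes shown. Csf2ra is at chr19:61228419-61228668 (minus strand), Il3ra at chr14:14346245-14346494 (plus strand), Csf2rb2 at chr15:78305722-78305971 (minus strand) and Csf3r at chr4:126024409-126024658 (plus strand). The GENCODE genes given below begin inside these windows for Il3ra (14346275), Csf3r (126024550) and Csf2ra (61228429, minus strand). Bases between such a position and the RefSeq start are inside the annotated gene and not upstream of it. All marked matches of Il3ra, all but the farthest of Csf3r and the nearest of Csf2ra are of this kind. Capitals mark matches on either strand. For GATA factors the letters searched were AGATAA together with AGATAG and, with another first base, TGATAA together with TGATAG. For ETS factors such as PU.1 they were AGGAAG. For C/EBP factors they were TTGCNNAA, and for CREB or ATF factors TGACGTCA. For RUNX factors they were TGTGGT together with TGCGGT. No marked matches overlap.
Csf2ra: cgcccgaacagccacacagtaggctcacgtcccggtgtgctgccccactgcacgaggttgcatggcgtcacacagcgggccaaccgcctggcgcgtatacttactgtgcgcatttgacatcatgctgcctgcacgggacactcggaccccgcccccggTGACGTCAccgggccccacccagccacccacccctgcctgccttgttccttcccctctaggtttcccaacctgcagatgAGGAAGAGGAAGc
Il3ra: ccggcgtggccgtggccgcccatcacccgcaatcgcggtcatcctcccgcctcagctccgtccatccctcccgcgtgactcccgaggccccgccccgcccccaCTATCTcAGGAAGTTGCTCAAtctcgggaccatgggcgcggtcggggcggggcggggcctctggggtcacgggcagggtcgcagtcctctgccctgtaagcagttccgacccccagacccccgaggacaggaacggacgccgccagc
Csf2rb2: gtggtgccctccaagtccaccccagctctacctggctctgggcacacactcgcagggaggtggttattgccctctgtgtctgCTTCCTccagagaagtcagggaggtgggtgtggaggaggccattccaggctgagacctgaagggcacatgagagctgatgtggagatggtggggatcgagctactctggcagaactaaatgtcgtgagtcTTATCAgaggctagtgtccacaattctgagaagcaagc
Csf3r: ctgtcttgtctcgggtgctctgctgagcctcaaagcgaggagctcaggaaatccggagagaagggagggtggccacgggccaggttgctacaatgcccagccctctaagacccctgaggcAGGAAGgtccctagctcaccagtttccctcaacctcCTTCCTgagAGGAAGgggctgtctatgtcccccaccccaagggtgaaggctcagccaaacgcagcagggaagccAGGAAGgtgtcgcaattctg
AGGAAG was found in each of the 4 windows shown, where 29.5% of all 32817 promoters of this length in the RefSeq table held it. Csf2rb had no entry in that table and no window of Csf1r is shown. The matches are therefore not a tally over all the receptor genes followed. Csf3r held it 4 times, counting both strands, and Csf2ra had a pair of matches side by side, the nearer one ending 2 bases before the start. GATA letters were found in Csf2rb2, as TTATCA 38 to 33 bases before the start, and in Il3ra, as CTATCT 147 to 142 bases before the start, and 26.6% of all promoters held them. In Il3ra the GATA, ETS and C/EBP matches followed each other with at most 1 base between them. The C/EBP letters were in 9.57% of all promoters. Csf2ra alone of the 4 held TGACGTCA, 92 to 85 bases before its start, which 1.55% of all promoters held. RUNX letters, held by 18.6% of all promoters, were in none of these 4 windows. These are matches of letters and say nothing of binding.

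Csf1r, the M-CSF receptor (ENSMUSG00000024621.15, chromosome 18, 61100598 to 61132149, plus strand of GRCm38), was the most variable of the 6 genes. It had 121, 58.0 and 262 CPM in Gata2 KO 1, 2 and 3, and 16.9, 10.3 and 275 CPM in Gata2 f/f 1, 2 and 3. The highest and the lowest value both lay in Gata2 f/f, 26.7-fold apart, and the 3 Gata2 KO values fell between them. Some of its exon sequence overlaps that of Hmgxb3, a gene on the opposite strand: 17.0% of the 90-base windows of its longest coding transcript also occur, on either strand, in Hmgxb3 transcripts. Whether the counting used strand is not given in the sources used here, so the lowest Csf1r counts are uncertain. Hmgxb3 had 54.8, 38.3 and 18.9 CPM in Gata2 KO and 48.6, 36.4 and 34.6 CPM in Gata2 f/f, lowest where Csf1r in Gata2 KO was highest. Its part in the Csf1r counts was not tested.

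Csf3r, the G-CSF receptor (ENSMUSG00000028859.14, chromosome 4, 126024550 to 126044440, plus strand), had 74.2, 22.8 and 62.8 CPM in Gata2 KO 1, 2 and 3, and 20.8, 20.6 and 64.0 CPM in Gata2 f/f 1, 2 and 3. Gata2 KO 1 and both libraries numbered 3 were high, and the remaining 3 lay close together at a low level. A pseudogene, AC105061.2, shares 1.21% of the 90-base windows of its longest coding transcript, so its counts are uncertain by a small part.

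Csf2ra, the alpha chain of the GM-CSF receptor (ENSMUSG00000059326.6, chromosome 19, 61223957 to 61228429, minus strand), had 308, 156 and 652 CPM in Gata2 KO 1, 2 and 3, and 160.0, 123 and 451 CPM in Gata2 f/f 1, 2 and 3. Within each number the Gata2 KO library was the higher one, and both libraries numbered 3 lay above the other 4. Il3ra, the alpha chain of the IL-3 receptor (ENSMUSG00000068758.7, chromosome 14, 14346275 to 14356011, plus strand), had 55.7, 39.0 and 98.1 CPM in Gata2 KO 1, 2 and 3, and 45.6, 28.9 and 60.8 CPM in Gata2 f/f 1, 2 and 3. It varied least of the 6, 3.40-fold between its extremes, in the same layout as Csf2ra. An antisense gene, Gm48860, overlaps exons of Il3ra. Of the read-length windows of the longest coding transcript of Il3ra, 0 of 2226 occur in transcripts of other genes. Reads that fall in the overlap cannot be told apart without strand, and how many there were was not tested.

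Csf2rb, the shared beta chain (ENSMUSG00000071713.4, chromosome 15, 78325752 to 78353847, plus strand), had 609, 289.6 and 567 CPM in Gata2 KO 1, 2 and 3, and 237, 180.3 and 618 CPM in Gata2 f/f 1, 2 and 3. Csf2rb2, the IL-3-specific beta chain (ENSMUSG00000071714.5, chromosome 15, 78282507 to 78305721, minus strand), had 141, 66.0 and 128 CPM in Gata2 KO 1, 2 and 3, and 35.5, 26.9 and 186 CPM in Gata2 f/f 1, 2 and 3. For either gene Gata2 f/f 3 was the highest library and Gata2 f/f 2 the lowest, with all of Gata2 KO between them. Their coding sequences are 95.2% identical over 2628 aligned bases, with a longest identical run of 242 bases. Of the 90-base windows of their longest coding transcripts, 8.19% in Csf2rb and 8.47% in Csf2rb2 occur in the other gene, so some reads could be assigned to either gene. Csf2rb had the higher count in every library, with 12742 against 2957 reads in Gata2 KO 1 and 4154 against 622 in Gata2 f/f 1. Reads given to the wrong gene would therefore weigh more on Csf2rb2, and how many there were was not tested.

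**Figure D1:**
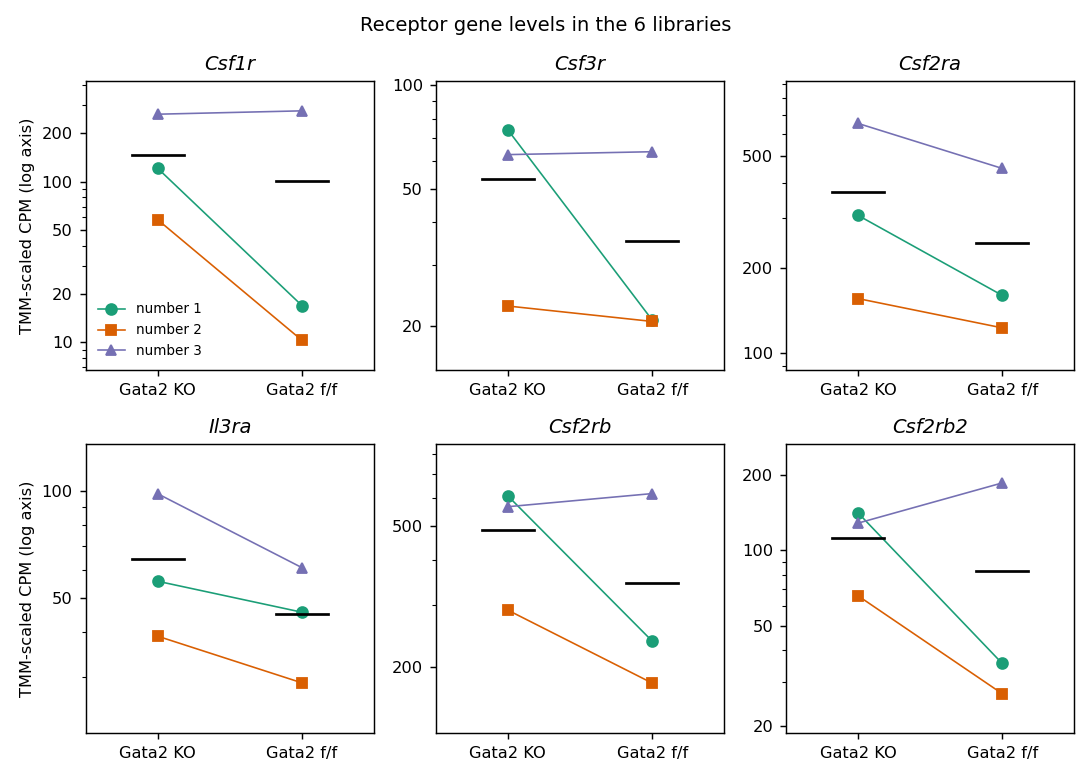
TMM-scaled CPM (log axis) of the 6 receptor genes in each library, Gata2 KO on the left and Gata2 f/f on the right of each panel; lines join libraries of the same number and black bars are means of 3. Csf1r spans 10.3 to 275 CPM within Gata2 f/f, and the genotypes overlap for every gene.

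Divided by the length of the longest coding transcript, the chains of the GM-CSF receptor were the most abundant. Csf2ra averaged 201 ± 138 CPM per kb in Gata2 KO and 132 ± 97.4 CPM per kb in Gata2 f/f (SD, n = 3 each), and Csf2rb averaged 99.7 ± 35.4 CPM per kb in Gata2 KO and 70.4 ± 48.5 CPM per kb in Gata2 f/f. They ranked first and second in all 6 libraries, also with the length of all annotated exons. Csf1r averaged 31.3 ± 22.3 CPM per kb in Gata2 KO and 21.5 ± 32.2 CPM per kb in Gata2 f/f, and Il3ra 27.8 ± 13.1 CPM per kb in Gata2 KO and 19.5 ± 6.90 CPM per kb in Gata2 f/f. Csf2rb2 averaged 23.6 ± 8.49 CPM per kb in Gata2 KO and 17.4 ± 18.8 CPM per kb in Gata2 f/f, and Csf3r, the lowest by mean, 15.3 ± 7.75 CPM per kb in Gata2 KO and 10.1 ± 7.20 CPM per kb in Gata2 f/f. Neighbours in this order overlapped in their ranges, except that in Gata2 KO every Csf2rb level (59.1 to 124 CPM per kb) was above every Csf1r level (12.3 to 55.8 CPM per kb). Csf1r moved most in rank: it was the lowest of the 6 in Gata2 f/f 1 and 2, with 3.60 and 2.19 CPM per kb, and ranked number 3 in both libraries numbered 3, at 55.8 CPM per kb in Gata2 KO 3 and 58.6 CPM per kb in Gata2 f/f 3.

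The design asks how expression differs between Gata2 KO and Gata2 f/f cells under Nutlin. All 6 receptor genes had a higher mean in Gata2 KO, but the genotypes overlapped for every gene and none was called. The log2 fold changes of Gata2 KO over Gata2 f/f were 0.54 ± 1.20 for Csf1r, 0.60 ± 0.59 for Csf3r, 0.60 ± 0.65 for Csf2ra, 0.51 ± 0.41 for Il3ra, 0.50 ± 0.51 for Csf2rb and 0.44 ± 0.74 for Csf2rb2 (SE, n = 3 each). In edgeR's quasi-likelihood test 0 of 6 had an adjusted p under 0.05 (adjusted p = 1.00 for each, over all genes tested) and 0 of 6 an unadjusted p under 0.05. Of all genes tested, 0% were called and 1.24% had an unadjusted p under 0.05. DESeq2 called 0 of the 6, against 0.0292% of all genes, and limma voom called 0 of the 6. The size of the difference depended on the tool for Csf1r and Csf2rb2: limma voom, also without a block, gave 1.72 ± 1.19 for Csf1r and 0.91 ± 0.71 for Csf2rb2 (SE, adjusted p = 0.984 for both). Groups that did not overlap were found for 2.64% of all genes, higher in Gata2 KO, and for 2.78%, lower in Gata2 KO. The median log2 fold change of the 6 was 0.53, beside 0.02 over all genes tested, of which 52.5% had a positive value. In bulk RNA, fewer cells of a type and less RNA per cell cannot be told apart.

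Within numbers 1 and 2 each of the 6 genes was higher in Gata2 KO, and within number 3 Csf2ra and Il3ra were. For Csf1r the log2 difference, Gata2 KO minus Gata2 f/f, was 2.83, 2.48 and -0.07 in numbers 1, 2 and 3. Its level in Gata2 KO was 7.14 times that in Gata2 f/f in number 1, 5.63 times in number 2 and 0.953 times in number 3. The beta chain genes had the same layout, with log2 differences of 1.99, 1.29 and -0.53 for Csf2rb2 and 1.36, 0.68 and -0.12 for Csf2rb. For Csf3r the values were 1.83, 0.15 and -0.03, a large difference in number 1 alone. Csf2ra (0.94, 0.35 and 0.53) and Il3ra (0.29, 0.43 and 0.69) were higher in Gata2 KO in all 3 numbers, which held for 20.7% of all genes tested. The values in number 2 rest on the library labelled Gata2 KO 2. With 1 library per genotype and number, whether the genotype difference itself differs between numbers could not be tested.

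**Figure D2:**
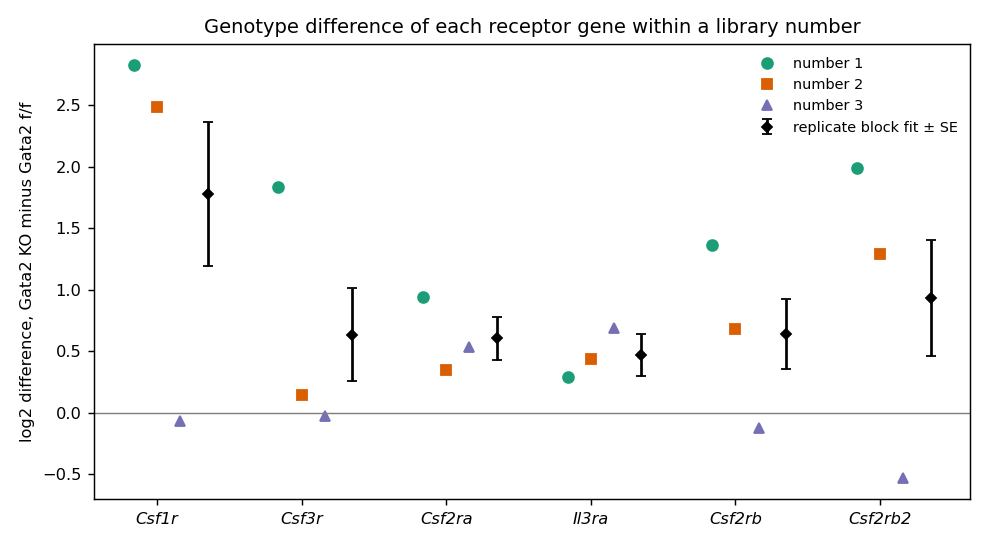
Log2 difference of TMM-scaled CPM, Gata2 KO minus Gata2 f/f, for each receptor gene within library numbers 1, 2 and 3, with the edgeR fit that has the number as a block (diamond, ± SE). Csf1r lies at 2.83, 2.48 and -0.07, while Csf2ra and Il3ra lie above 0 in each number.

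With the replicate number as a block, the log2 fold change of Csf1r was 1.78 ± 0.58 and that of Csf2rb2 0.93 ± 0.47 (SE), larger than in edgeR without the block and close to limma voom without it. Those of the others were 0.64 ± 0.38 for Csf3r, 0.61 ± 0.17 for Csf2ra, 0.47 ± 0.17 for Il3ra and 0.64 ± 0.28 for Csf2rb. Csf1r, Csf2ra and Il3ra had an unadjusted p under 0.05 in this fit, 3 of 6, where 10.7% of all genes did. None of the 6 passed the adjusted threshold (edgeR, adjusted p = 0.403 to 0.561), and 0% of all genes did. DESeq2 with the block called 0 of 6, against 1.59% of all genes (adjusted p = 0.240 to 0.558). Without the library labelled Gata2 KO 2, edgeR with the block gave 1.36 ± 1.05 for Csf1r, 0.72 ± 0.71 for Csf2rb2, 0.89 ± 0.44 for Csf3r, 0.73 ± 0.32 for Csf2ra, 0.49 ± 0.34 for Il3ra and 0.61 ± 0.36 for Csf2rb, from 1 residual degree of freedom. Csf2ra alone then had an unadjusted p under 0.05, 1 of 6, where 6.98% of all genes did, and none of the 6 was called (adjusted p = 0.608 to 0.938).

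Single libraries moved these values by much. Without the library labelled Gata2 KO 2 and with no block, the log2 fold changes ran from 0.70 for Csf2rb2 to 0.97 for Csf2ra, each larger than with it, and none was called (edgeR, adjusted p = 0.915 to 0.920). Without Gata2 KO 3, Csf1r was at -0.19 and Csf2ra at -0.10, a change of sign. Without Gata2 f/f 3, Csf1r was at 3.40 ± 0.69 (SE) and not called (edgeR, adjusted p = 0.693). Without both libraries numbered 3, edgeR gave 2.68 for Csf1r, 1.70 for Csf2rb2 and 1.19 for Csf3r and called none of the 6. DESeq2 with the block on those 4 libraries called Csf1r (2.64, adjusted p = 6.35e-27), Csf2rb2 (1.62, adjusted p = 1.45e-09) and Csf2rb (0.99, adjusted p = 6.15e-05). That fit was chosen after the data were seen, leaves out the number in which these genes were not higher in Gata2 KO, and includes the library labelled Gata2 KO 2.

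The library number separated several receptor genes. In the fit with genotype as the other term, edgeR called 3 of 6 between numbers, where 9.09% of all genes tested were called and 6.63% were called and higher in number 3. This test asks whether the 3 numbers differ in any way, and its adjusted p is given beside the difference of number 3 from the mean of numbers 1 and 2, which was not tested by itself. Csf1r was higher in number 3 than in the mean of numbers 1 and 2 by 3.21 ± 0.58 on the log2 scale (adjusted p = 0.0429), Csf2ra by 1.62 ± 0.18 (adjusted p = 0.0120) and Il3ra by 0.91 ± 0.17 (SE, adjusted p = 0.0396). For these 3 genes both libraries numbered 3 also lay above the other 4. Csf2rb (1.03 ± 0.29, adjusted p = 0.0921), Csf2rb2 (1.62 ± 0.48, adjusted p = 0.118) and Csf3r (1.09 ± 0.38, adjusted p = 0.133) did not pass, and in each of them Gata2 KO 1 was above Gata2 KO 3. Without the library labelled Gata2 KO 2, Csf2ra alone of the 6 was called between numbers (1.52, edgeR adjusted p = 0.00294), where 9.75% of all genes were. Csf1r then stood at 3.36 (edgeR, adjusted p = 0.357) and Il3ra at 0.89 (adjusted p = 0.206). What a number stands for is not given in the labels.

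Ratios inside a library do not depend on how libraries are scaled. Of the joint counts of the beta chain genes, Csf2rb2 took 18.8%, 18.6% and 18.5% in Gata2 KO 1, 2 and 3, and 13.0%, 13.0% and 23.1% in Gata2 f/f 1, 2 and 3. The Wilson 95% intervals, which cover counting error only, were 18.2 to 19.5%, 17.6 to 19.5% and 17.9 to 19.1% in Gata2 KO, and 12.1 to 14.0%, 12.0 to 14.0% and 22.5 to 23.7% in Gata2 f/f. They do not cover reads that could be assigned to either gene, so the shares are less certain than these intervals. The 3 Gata2 KO intervals overlapped each other, although the joint counts there ran from 6552 to 16551, while the Gata2 f/f libraries lay on both sides of them. The log2 ratio of Csf2rb2 over Csf2rb was -2.13 ± 0.02 in Gata2 KO and -2.41 ± 0.58 in Gata2 f/f (SD, n = 3 each), a difference of 0.28 (exact two-sided permutation test, p = 0.40).

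The G-CSF receptor relative to the M-CSF receptor, Csf3r over Csf1r, had log2 ratios of -0.71, -1.35 and -2.06 in Gata2 KO 1, 2 and 3, and 0.29, 1.00 and -2.10 in Gata2 f/f 1, 2 and 3. Csf3r counts exceeded Csf1r counts in Gata2 f/f 1 and 2 alone. The difference between the genotype means was -1.10 (exact two-sided permutation test, p = 0.40). For the alpha over the beta chain of the GM-CSF receptor, Csf2ra over Csf2rb, the Gata2 KO libraries had -0.98, -0.89 and 0.20, on both sides of the Gata2 f/f libraries, which lay close together at -0.57, -0.55 and -0.45. Its difference was -0.03 (exact permutation test, p = 1.00). For Il3ra over Csf2ra, alpha chains that share a beta chain, it was -0.14 (exact permutation test, p = 0.80). Adjusted over the 4 ratios the p-values were 0.80 or 1.00, and 3 libraries against 3 cannot go below 0.10.

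**Figure D3:**
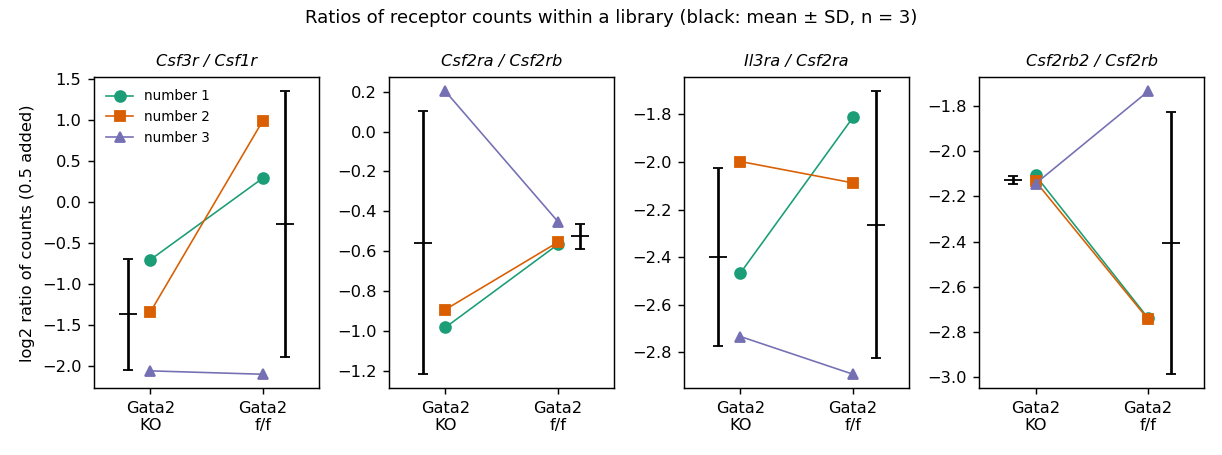
Log2 ratios of the counts of 2 receptor genes in the same library (0.5 added to each count), Gata2 KO left of Gata2 f/f in each panel; lines join libraries of the same number and black bars show the mean ± SD of 3. The Csf2rb2 over Csf2rb ratio lies at -2.11, -2.13 and -2.14 in Gata2 KO and at -2.74, -2.74 and -1.73 in Gata2 f/f.

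Receptors for the other cytokines in the medium were compared with the 6 genes. Il6ra, the alpha chain of the IL-6 receptor, had 44.8, 19.5 and 27.3 CPM in Gata2 KO and 15.2, 9.95 and 32.0 CPM in Gata2 f/f. Its signalling partner Il6st had 60.7, 29.1 and 79.0 CPM in Gata2 KO and 28.3, 16.3 and 78.1 CPM in Gata2 f/f, and it was called between numbers (edgeR, adjusted p = 0.0334, and 0.0137 without the library labelled Gata2 KO 2). As for Csf1r, the Gata2 KO library was well above the Gata2 f/f library in numbers 1 and 2 and not in number 3. Kit, the SCF receptor, had 59.7, 58.0 and 1.34 CPM in Gata2 KO and 88.7, 78.1 and 28.5 CPM in Gata2 f/f, lower in Gata2 KO within each number and lowest in the libraries numbered 3. Of 17 related receptors 13 were tested and 8 had a positive log2 fold change (median 0.32), with 0 called by edgeR with or without the block. The smallest unadjusted p belonged to Osmr, the oncostatin M receptor (1.42 ± 0.50), then Flt3, the FLT3 ligand receptor (-1.82 ± 1.07), Il6ra (0.68 ± 0.49) and Ifnar2, an interferon receptor chain (0.32 ± 0.25), each with adjusted p = 1.00. DESeq2 with the block called 1, Il4ra, the alpha chain of the IL-4 receptor, at 278, 90.8 and 507 CPM in Gata2 KO and 85.4, 54.8 and 314 CPM in Gata2 f/f (log2 fold change 1.01, adjusted p = 0.00976, and 0.267 without the library labelled Gata2 KO 2).

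Of 28 kinases, adaptors and STATs that act below these receptors, 23 had a positive log2 fold change (median 0.21), and 0 were called by edgeR with or without the block. Jak2, the kinase bound to the beta chains, was at 39.0, 27.6 and 26.2 CPM in Gata2 KO and 24.0, 25.4 and 41.5 CPM in Gata2 f/f. Stat5a and Stat5b, the factors it activates, had log2 fold changes of 0.02 ± 0.39 and 0.08 ± 0.25. The smallest unadjusted p values belonged to the kinase genes Jak3 (0.60 ± 0.34), Syk (0.50 ± 0.29) and Fes (0.53 ± 0.34) and to the exchange factor gene Vav1 (0.35 ± 0.23), each with edgeR adjusted p = 1.00. Of the 28, 2 were called by DESeq2 with the block, among them Fgr, a Src family kinase gene. Fgr had 23.0, 5.43 and 93.2 CPM in Gata2 KO and 1.88, 1.07 and 50.2 CPM in Gata2 f/f (2.20, adjusted p = 2.59e-05, and 0.0204 without the library labelled Gata2 KO 2). It was high in both libraries numbered 3, as Csf1r was, and higher in Gata2 KO within each number.

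Of 16 negative regulators 10 had a positive value (median 0.19) and 0 were called by edgeR with or without the block. Cish, a STAT5 target that inhibits STAT5 signalling, was at 15.0, 10.5 and 17.7 CPM in Gata2 KO and 11.9, 8.38 and 19.6 CPM in Gata2 f/f (0.12 ± 0.38). Ptpn6, which encodes the phosphatase SHP-1, had 0.61 ± 0.29, Sh2b3, a restraint on JAK2, 0.47 ± 0.30, and Spred1, an inhibitor of Ras signalling, -0.41 ± 0.21. Higher in Gata2 KO by DESeq2 with the block were 2 of 16. Socs3, an inhibitor of the G-CSF and IL-6 receptors, had 36.0, 15.7 and 117 CPM in Gata2 KO and 8.27, 5.22 and 76.2 CPM in Gata2 f/f (1.40, adjusted p = 0.000903, and 0.233 without the library labelled Gata2 KO 2). Dok3, an adaptor that restrains immune receptor signals, had 134, 80.0 and 200.3 CPM in Gata2 KO and 68.2, 59.7 and 93.7 CPM in Gata2 f/f (0.81, adjusted p = 0.0444, and 0.294 without that library).

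Of 15 genes known to respond to these cytokines 11 had a positive value (median 0.24), 0 were called by edgeR with or without the block, and 7, against 9.09% of all genes, were called between numbers, all of them with a higher mean in number 3. Without the library labelled Gata2 KO 2, which left 9.75% of all genes called, 4 of the 7 were called between numbers, Ccnd1, Ccnd2, Egr1 and Fos. Bcl6 (edgeR, adjusted p = 0.0584), Bcl2l1 (0.0878) and Mcl1 (0.181) were not. The 1 gene called by DESeq2 with the block was lower in Gata2 KO. It was Ccnd2, the cyclin D2 gene, with 36.8, 55.7 and 119.8 CPM in Gata2 KO and 106, 95.8 and 206 CPM in Gata2 f/f (-1.06, adjusted p = 0.00235, and 0.179 without the library labelled Gata2 KO 2). It was lower in Gata2 KO within each number. Ccnd3, the cyclin D3 gene, had a log2 fold change of 0.49 ± 0.35, Bcl6, a repressor that STAT5 opposes, 1.11 ± 0.81, and Id1, an inhibitor of bHLH factors, 0.19 ± 0.21, each with edgeR adjusted p = 1.00.

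Of 13 transcription factors known to act in myeloid cells, including on receptor genes, 12 passed the filter, 10 of them with a positive value (median 0.25), and 0 were called by edgeR or by DESeq2 with the block. When the library labelled Gata2 KO 2 was left out, both tools with the block called 1 of the 12, Gata2 itself, lower in Gata2 KO (DESeq2 -2.38, adjusted p = 4.11e-05, against -1.38 and 0.690 with that library, and edgeR -2.36 ± 0.41, adjusted p = 0.00356). Spi1, which encodes PU.1, an activator of Csf1r, had 499.8, 299 and 636 CPM in Gata2 KO and 259, 220.3 and 352 CPM in Gata2 f/f. Within each number it was higher in Gata2 KO, with a log2 fold change of 0.79 ± 0.34 (edgeR, unadjusted p = 0.0499, adjusted p = 1.00). Cebpd, Cebpb and Cebpe, C/EBP factors of myeloid cells, had 0.85 ± 0.44, 0.54 ± 0.45 and 0.27 ± 0.24. Cebpa, an activator of Csf3r, was at 337, 206 and 310.4 CPM in Gata2 KO and 294, 215 and 215 CPM in Gata2 f/f (0.24 ± 0.27).

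The profiles of the receptor genes over the libraries were compared by the root mean square (RMS) difference of log2 CPM, each gene centred on its own mean, with 9924 other genes of at least 5 mean CPM. This describes 6 libraries that share genotype and number. Csf2rb and Csf3r were the most alike of the 15 receptor pairs, at an RMS difference of 0.220, and Csf1r and Il3ra the least, at 1.39. Many other genes were closer: Csf3r ranked number 49 among the genes nearest to Csf2rb, and Il3ra number 935 among those nearest to Csf1r. Nearest to Csf1r were March1, Gm15931 and Fblim1 (0.163 to 0.203, where Csf1r itself had an SD of 1.82). Csf2ra was nearest to Slc12a9, Gpr84 and Fam234a (0.0717 to 0.112), and Il3ra to Dlgap4, Cenpb and Fzd1 (0.0615 to 0.106). Csf2rb was nearest to Tmem104, Sh3bp2 and Pparg (0.0913 to 0.126), Csf3r to Pparg, Mfsd6 and Nrp2 (0.136 to 0.139), and Csf2rb2 to Slc52a3, Ahnak and Slc43a2 (0.148 to 0.215).

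Markers of mature myeloid cells shared high values in the libraries numbered 3 with the receptor genes, but did not follow them in every library. The summed level of 12 monocyte and macrophage markers, each above 5 CPM in some library, was 2061, 1700.1 and 7015 CPM in Gata2 KO and 951, 1041 and 5475 CPM in Gata2 f/f. Late neutrophil markers, 8 of 9 above 5 CPM in some library, summed to 1587, 549 and 2967 CPM in Gata2 KO and 239, 521 and 1783 CPM in Gata2 f/f. Either sum was highest in the libraries numbered 3, and within each number it was higher in Gata2 KO, also in number 3, where Csf1r, Csf3r, Csf2rb and Csf2rb2 were not. Most of the monocyte and macrophage sum in the libraries numbered 3 was Lyz2, at 4245 CPM in Gata2 KO 3 and 3053 CPM in Gata2 f/f 3. Single markers did not all follow the sums, and Cx3cr1 had 3.53 CPM in Gata2 KO 3 and 14.3 CPM in Gata2 f/f 3. Higher in Gata2 KO within every number were 3 of the 12 and 3 of the 8 late neutrophil markers tested, beside 20.7% of all genes. Lower within every number were 0 of either list. By edgeR, with or without the block, 0 markers of either list were called between genotypes. DESeq2 with the block called 1.59% of all genes, in either direction. Among late neutrophil markers, 4 of the 8 tested were called higher in Gata2 KO by DESeq2 with the block, Cxcr2 (2.12, adjusted p = 3.18e-07), Mmp9 (1.89, 2.43e-05), S100a8 (1.39, 0.0129) and Ngp (1.20, 0.0377). Not called were S100a9 (1.53), Mmp8 (1.32), Ltf (0.65) and Camp, which was lower in Gata2 KO (-1.37), with DESeq2 adjusted p = 0.542 to 0.798. Within number 2, S100a8 (149 against 165 CPM) and S100a9 (130 against 145 CPM) were lower in Gata2 KO. With the library labelled Gata2 KO 2 left out, Cxcr2, Mmp9, S100a8 and Ngp were still called, and S100a9 was added, by DESeq2 and by edgeR with the block. These fits had 1 residual degree of freedom and no partner for Gata2 f/f 2, and the DESeq2 fit was added after the data were seen. Of all genes, edgeR then called 0.378%. Among the 12 monocyte and macrophage markers DESeq2 with the block called 2 higher in Gata2 KO, Cd68 (1.29, adjusted p = 2.43e-05, and 0.0663 without that library) and Lyz2 (1.59, adjusted p = 9.25e-05, and 0.217 without it). Between numbers, edgeR called 7 of these 12 and 2 of the 8, where 9.09% of all genes tested were called. Without the library labelled Gata2 KO 2 it called 10 and 3, where 9.75% of all genes were. Their part in the receptor values was not tested.

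Markers of other cells were lower. Dendritic markers, 2 of 7 above 5 CPM in some library, summed to 55.9 to 171 CPM in Gata2 KO and 32.6 to 141 CPM in Gata2 f/f, highest in the libraries numbered 3, nearly all of it Bst2 and Itgax, with Siglech at 0 in every library. Mast cell and basophil markers, 3 of 8 above 5 CPM, summed to 8.95 to 48.2 CPM in Gata2 KO and 17.8 to 37.6 CPM in Gata2 f/f, highest in the library labelled Gata2 KO 2, with Fcer1a at or near 0. That library also had the eosinophil genes Prg2 and Epx at 14.5 and 8.85 CPM, against at most 1.20 and 0.456 CPM in the other 5, and the 5 eosinophil markers, 2 of them above 5 CPM, summed to 2.44 to 25.8 CPM in Gata2 KO and 2.63 to 4.64 CPM in Gata2 f/f. Its Il3ra, a gene that mast cells, basophils and eosinophils express, was the second lowest of the 6 libraries. T and NK cell markers summed to 0.812 to 2.31 CPM in Gata2 KO and 0.456 to 1.55 CPM in Gata2 f/f, with Ncr1 at 0. B cell markers summed to 1.48 to 5.13 CPM in Gata2 KO and 4.02 to 6.10 CPM in Gata2 f/f, with Pax5 at 0, and erythroid markers to at most 6.46 CPM in Gata2 KO and 2.11 CPM in Gata2 f/f. Of 4 megakaryocyte markers 3 were above 5 CPM in some library, and they summed to 14.1 to 50.8 CPM in Gata2 KO and 5.53 to 42.7 CPM in Gata2 f/f, highest in the libraries numbered 3, with Vwf the largest there. The 5 stromal and endothelial markers summed to 146 to 211 CPM in Gata2 KO and 129 to 177 CPM in Gata2 f/f, most of it Pecam1, which myeloid cells also express. The part of these markers in the receptor values was not tested.

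**Figure D4:**
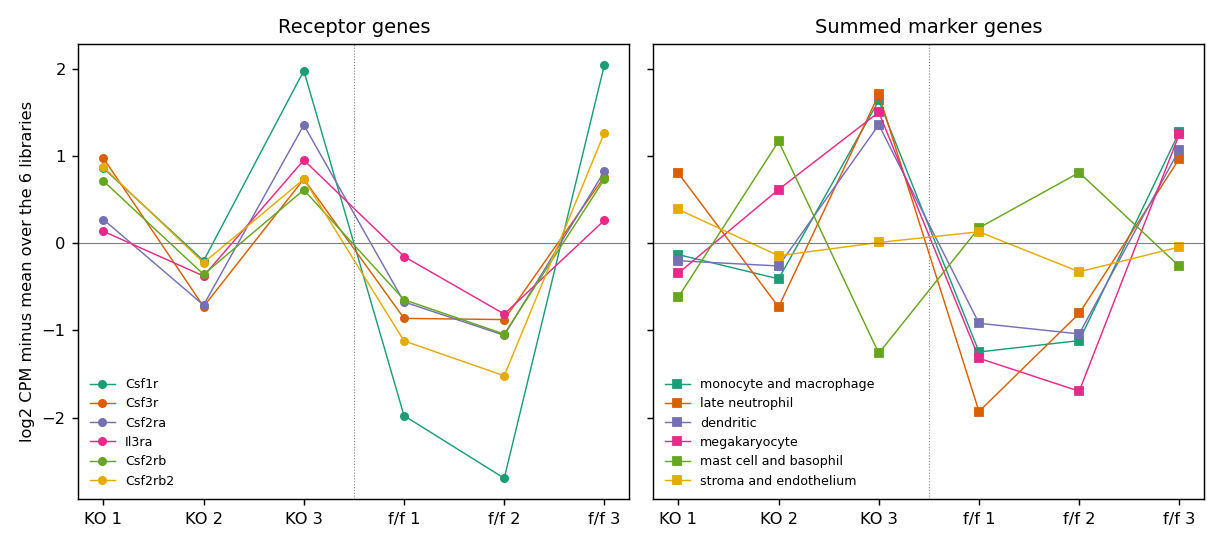
Log2 CPM of each receptor gene (left panel) and of summed marker genes (right panel) in the 6 libraries, each centred on its own mean over them, Gata2 KO left of the dotted line and Gata2 f/f right of it. Receptor genes and the monocyte, neutrophil, dendritic and megakaryocyte sums share high values in the libraries numbered 3, which the mast cell sum does not.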

How the data were processed

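Poly(A) RNA of 3 Gata2 KO and 3 Gata2 f/f libraries was sequenced as 90-base paired reads, per the labels' protocols. The authors deposited 1 table of raw counts per gene. HTSeq, kallisto, DESeq2 and mm10 appear in the submitters' processing notes without role or version, and the strand setting of the counting is not stated there. Of 49585 gene IDs, 49326 matched GENCODE M21 without version. Counts were scaled by TMM, filtered by filterByExpr (minimum count 10, 13744 genes, 99.9% of counts) and tested with edgeR 4.0.16 (robust quasi-likelihood, R 4.3.3, Benjamini-Hochberg over all genes tested, threshold 0.05), without a block. DESeq2 1.42.0, limma 3.58.1 voom, other scalings and filters, the replicate number as a block and libraries left out were alternatives. The pipeline was tested on simulated data. The SE of an edgeR log2 difference was derived from its test, as its absolute size divided by the square root of the F statistic. Log2 CPM used a prior count of 2. Reads carry no molecular identifiers, so counting intervals and floors cover counting error only.

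Deviations from the genotype means correlated within numbers 1, 2 and 3 at 0.29, 0.55 and 0.65 over genes. Across numbers they ran from -0.64 to 0.46, the highest for Gata2 KO 2 with Gata2 f/f 1, above the pair numbered 1. Each same-numbered pair exceeded 0.1, but so did Gata2 KO 1 with Gata2 f/f 2 (0.104) and Gata2 KO 2 with Gata2 f/f 1. The correlations thus set number 3 apart and cannot decide how the libraries numbered 1 and 2 pair. That the numbers pair the libraries was an assumption of the block fits and is not stated in the labels. The members and lists were chosen with earlier results of these data known. The lists' named genes are the 4 of smallest unadjusted p, plus genes called by DESeq2 with the block and genes of known role (Il6st, Kit, Jak2, Stat5a, Stat5b, Cish, Cebpa), picked after their values were seen. No sequence of Csf1r is printed, and 1 called gene of the signalling list is not reported here.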

Additional observations from a re-analysis of the deposited data

How the results depend on the processing

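None of the 6 receptor genes was called between genotypes under the alternatives listed in the methods, with 0 genes of the whole table called by edgeR, with or without the replicate block, and by limma voom. DESeq2 called 7 genes, DESeq2 with the replicate block 212, and edgeR with the block and without the library labelled Gata2 KO 2 called 54. DESeq2 fits on fewer libraries were added after the data were seen. DESeq2 with the block called 61 genes and 0 members without the library labelled Gata2 KO 2, and 401 genes and 3 members without both libraries numbered 3, where Csf1r was at 2.64, Csf2rb at 0.99 and Csf2rb2 at 1.62. Leaving out 1 library at a time gave log2 fold changes of -0.19 to 3.40 for Csf1r, -0.10 to 1.36 for Csf2ra, 0.19 to 1.19 for Csf2rb, 0.02 to 1.80 for Csf2rb2, 0.27 to 1.32 for Csf3r and 0.05 to 0.76 for Il3ra. The negative values, for Csf1r and Csf2ra, came without Gata2 KO 3. The log2 ratio differences ranged from -2.02 to -0.47 for Csf3r over Csf1r, -0.41 to 0.18 for Csf2ra over Csf2rb, -0.45 to 0.091 for Il3ra over Csf2ra and 0.11 to 0.61 for Csf2rb2 over Csf2rb. Csf2ra over Csf2rb turned positive without Gata2 KO 1 (0.18), the library labelled Gata2 KO 2 (0.13) or Gata2 f/f 3 (0.0025), and Il3ra over Csf2ra without Gata2 KO 3 (0.03) or Gata2 f/f 1 (0.091). Between numbers 3 members were called, where 9.09% of all genes tested were, and 2 with no filter on low counts. Without the library labelled Gata2 KO 2 it was 1 member, where 9.75% of all genes were called. That fit had 1 residual degree of freedom and was also added later. The causes of these changes were not tested. Whether greater depth would change these comparisons was not tested.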
